A study of Rattus norvegicus with 4 samples.

Results

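The insulin receptor route and the glucose transporter it moves to the cell surface were followed in retroperitoneal white fat, a visceral depot, of lean and obese WNIN/Ob rats. The genes were chosen by symbol: Insr, Irs1, Irs2, Pik3r1, Akt2, Slc2a4, Pde3b, Grb14 and Rapgef3. Of these 9, 8 had an array row of their own, out of 14506 genes with one, and Irs2 was not analysed here, since no row listed it as the only symbol. There were 2 lean and 2 obese rats, all male, 4 months old and of the WNIN/Ob strain, fed stock diet, untreated and acclimatised for a week, and each gave 1 sample for 1 Affymetrix Rat Gene ST array. The labels give the phenotypes as lean and obese and name no allele. Values are log2 intensities, differences are obese minus lean on that scale with the standard error (SE) from limma over 2 rats per group, and a gene was called at a Benjamini-Hochberg adjusted p under 0.05 over all 14506 genes.

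Insulin binds its receptor, a tyrosine kinase that phosphorylates the insulin receptor substrates. These recruit phosphoinositide 3-kinase, whose lipid product brings Akt kinases to the membrane. In fat cells Akt2 releases vesicles that carry the glucose transporter GLUT4, the product of Slc2a4, to the surface, and insulin signalling also activates phosphodiesterase 3B, which breaks down cyclic AMP and so restrains lipolysis. Much of this control acts through phosphorylation and protein movement, which an expression array does not measure.

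Some of the 8 genes had like values across the 4 rats. Irs1, Rapgef3 and, narrowly, Akt2 were lower in both obese rats than in both lean rats. Insr and Pik3r1 ranked the 4 rats alike, with lean rat 1 highest and obese rat 1 lowest. RefSeq promoters of assembly GRCr8, from 250 bases before to 50 after the start site, were found for 6 of the 8 genes. Slc2a4 and Pde3b had none. Those of Insr, Pik3r1, Irs1 and Rapgef3, 2 pairs picked by their values, are shown side by side. Other pairs, Slc2a4 with Pde3b and Irs1 with Akt2, were closer in profile than Insr with Pik3r1. Of the windows not shown, Akt2 held 1 TATA box and Grb14 held 4 GC boxes. Capitals mark the forkhead motif GTAAACA, the GC box GGGCGG and the CCAAT box, each searched on both strands, together with the E box CACGTG and the TATA box TATAAA.
Insr, chr12:6128754-6129053, minus strand: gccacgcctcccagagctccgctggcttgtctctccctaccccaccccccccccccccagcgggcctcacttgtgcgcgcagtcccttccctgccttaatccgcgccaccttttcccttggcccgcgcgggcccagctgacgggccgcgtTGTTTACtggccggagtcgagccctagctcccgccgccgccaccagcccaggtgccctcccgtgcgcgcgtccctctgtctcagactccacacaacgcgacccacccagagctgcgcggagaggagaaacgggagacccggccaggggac
Pik3r1, chr2:34697611-34697910, minus strand: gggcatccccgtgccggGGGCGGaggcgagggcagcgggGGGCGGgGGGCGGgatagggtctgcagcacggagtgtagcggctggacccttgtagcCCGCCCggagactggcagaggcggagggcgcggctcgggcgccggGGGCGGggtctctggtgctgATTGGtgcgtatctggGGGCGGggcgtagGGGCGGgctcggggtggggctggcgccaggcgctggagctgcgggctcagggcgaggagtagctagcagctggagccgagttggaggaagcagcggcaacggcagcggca
Irs1, chr9:91053910-91054209, minus strand: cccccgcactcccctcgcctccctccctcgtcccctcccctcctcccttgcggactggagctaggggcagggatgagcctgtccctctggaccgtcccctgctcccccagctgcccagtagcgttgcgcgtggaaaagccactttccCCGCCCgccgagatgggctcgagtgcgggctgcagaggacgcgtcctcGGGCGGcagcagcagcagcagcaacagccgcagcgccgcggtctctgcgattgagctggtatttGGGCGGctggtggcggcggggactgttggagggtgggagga
Rapgef3, chr7:130776767-130777066, minus strand: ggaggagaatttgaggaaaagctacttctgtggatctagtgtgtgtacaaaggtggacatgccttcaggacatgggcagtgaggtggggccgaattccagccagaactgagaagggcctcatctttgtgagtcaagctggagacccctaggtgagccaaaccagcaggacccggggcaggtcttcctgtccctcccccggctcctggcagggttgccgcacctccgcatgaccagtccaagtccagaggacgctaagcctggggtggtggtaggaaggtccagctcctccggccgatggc
The Insr window held 1 forkhead motif, on the reverse strand and beginning 100 bases before the start site, a motif found in 3.78% of 33469 promoters. The forkhead motif is the one that FOXO factors, which Akt inhibits, bind. Pik3r1 held 7 GC boxes and 1 CCAAT box, and Irs1 held 3 GC boxes. GC boxes occurred in 33.1% of all promoters and CCAAT boxes in 37.5%. The windows of Insr, Pik3r1, Irs1 and Rapgef3 were 71.3%, 75.3%, 70.3% and 59.7% G or C, against a median of 51.7% over all promoters. The GC box share is thus taken over windows mostly less rich in G and C. Rapgef3 held none of the 5 motifs in this window. Neither Insr and Pik3r1 nor Irs1 and Rapgef3 had a motif that both windows held, and these matches are descriptions of letters, not of bound factors.

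None of the 8 genes was called, where 0.841% of all genes tested were (0.772% higher and 0.0689% lower in the obese rats). At an unadjusted p under 0.05 there was 1, Rapgef3, where 15.3% of all genes passed. Differences ran from -0.61 to 0.44 with a median of -0.20, against a median of 0.0005 over all genes. With a rat left out the median of the 8 ran from -0.35 (without lean rat 2) to -0.05 (without obese rat 1). Both obese rats lay below both lean rats for 3 of the 8, where this held for 21.3% of all genes, and above both lean rats for 0 of the 8, where it held for 26.4%. Arrays were simulated with each gene's own mean and measured spread, with independent noise and changed genes drawn from all 14506. There 0.1% of genes changed by 1 and 37.2% of those changed by 2 were recovered by the same procedure. These rates are not specific to the 8 genes. The differences of these 8 genes were all smaller than 1, so the absence of calls says little, and the intervals below give the sizes the data allow.

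**Figure D1:**
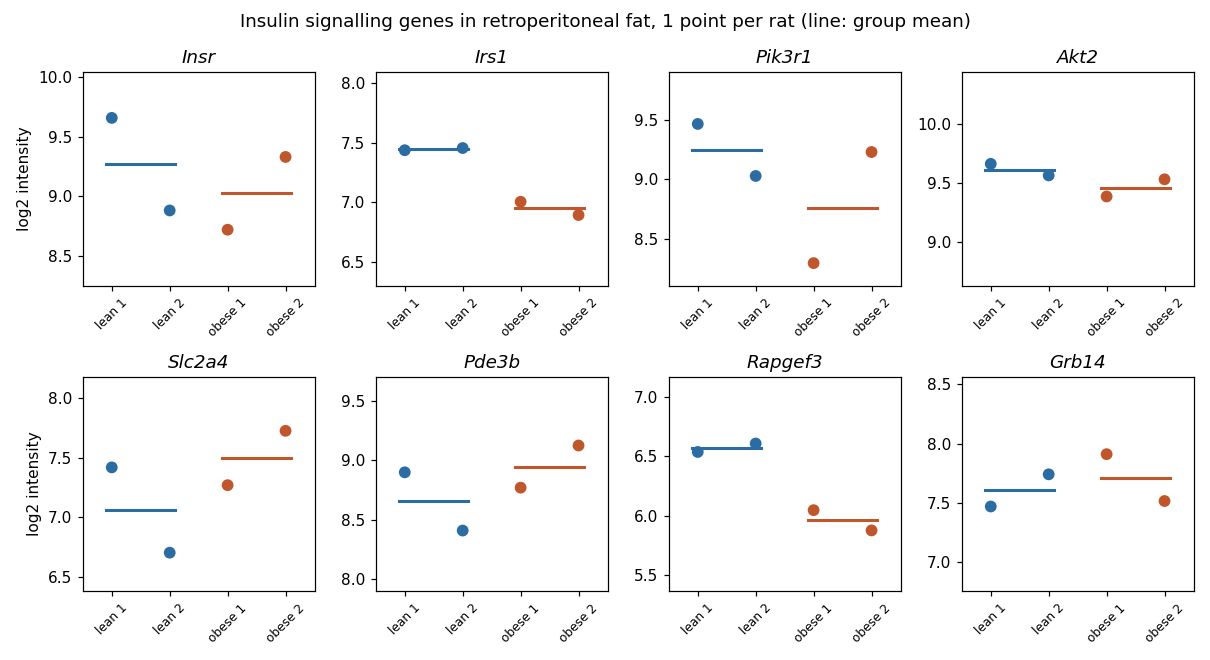
Log2 intensity of each of the 8 genes in each rat, with lean rats in blue, obese rats in orange, and a line at each group's mean; every panel spans 1.8 log2 units. The obese points lie below the lean points for Irs1, Rapgef3 and, narrowly, Akt2, and the groups overlap for the other 5 genes.

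Some facts of the arrays touch several of these genes. Muscle, another site of insulin-stimulated glucose uptake, expresses many of them. The median of 17 skeletal muscle markers was 11.6 in lean rat 1, against 5.39 in its lean counterpart and 5.46 and 5.22 in the obese animals. Mesothelial markers (8 genes) were at a median of 6.48 in lean rat 1 against 4.83 to 5.54 in the other rats. Krt8, Krt18, Krt19, Upk1b and Gpm6a stood highest in lean rat 1. Msln was nearly level in lean rats 1 and 2 (5.31 and 5.24), and Wt1 (5.42 and 5.83) and Bnc1 (4.51 and 4.93) were lower in lean rat 1. Macrophage markers (14 genes) were at 6.64 and 7.23 in the lean rats and 9.01 and 9.08 in the obese rats, and 7 of them were called higher. Of the 14, 12 were higher in both obese rats, where 26.4% of all genes were. The groups overlapped for Cd163 (-0.05) and C1qa (0.27). The 13 adipocyte markers, which include Adipoq, Plin1 and Fabp4, were present in every rat at medians between 10.0 (lean rat 1) and 11.1 (obese rat 2). These medians fall on different markers in different rats. By gene, the differences were above 0 for 10 and below 0 for 3, from -0.83 (Cfd) to 1.56 (Lep). The median difference of the markers was 0.19 with none called (1 at an unadjusted p under 0.05). Fewer cells of a type and less RNA per cell cannot be told apart in whole tissue. Odorant and vomeronasal receptor genes, taken as near background, were at a median of 3.38 and 3.86 in the lean rats and 3.16 and 3.16 in the obese rats, a median difference of -0.39 over 1240 genes. Of these receptor genes, 52.3% were lower in both obese rats than in both lean rats. Each of the 8 genes lay above the 95th percentile of the receptor genes on every array, which was 5.36 at most. How far these shifts in marker levels and in dim genes enter the values below was not tested. Only the values without single rats and the scalings to adipocyte markers in the last section touch on it. The count of called genes, 122, became 1081 or 477 when lean rat 1 or lean rat 2 was left out, and 268 or 356 when obese rat 1 or obese rat 2 was. Without a lean rat that group is 1 rat and the spread comes from the obese rats alone, so a call gained there is weak: 7.45% of all genes were called without lean rat 1 and 3.29% without lean rat 2, and 2.45% were without obese rat 2.

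Insr, the receptor itself, was at 9.66 and 8.88 in lean rats 1 and 2 and at 8.72 and 9.33 in obese rats 1 and 2. The 2 groups overlapped, and rats of the same group differed by 0.78 (lean) and 0.61 (obese). The difference was -0.25 ± 0.38 (SE, n = 2 per group; limma adjusted p = 0.804), with a 95% interval from -1.13 to 0.64. Its sign turned when lean rat 1 (0.14) or obese rat 1 (0.061) was left out. Insr had a second row on the array, at 7.61 and 7.11 in the lean rats and 6.93 and 7.59 in the obese rats. That row ranked the 4 rats in the same order as the first and gave a difference of -0.10 ± 0.34.

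Irs1 encodes a docking protein that the activated receptor phosphorylates. It was at 7.44 and 7.46 in the lean rats and at 7.004 and 6.89 in the obese rats. The lean rats were nearly equal and both obese rats lay lower. The difference was -0.50 ± 0.27 (limma adjusted p = 0.414), or 1.41-fold lower in linear terms, with a 95% interval from -1.12 to 0.12. With any single rat left out it stayed between -0.55 and -0.44. The spread of Irs1 within groups was at the 3.92 percentile of all genes, so the SE, which limma draws toward the trend shared by all genes, is larger than these 4 values alone would give. For Insr, Pik3r1 and Slc2a4, whose spread was at the 89.1, 90.4 and 82.6 percentiles, the SE is smaller than their own values would give.

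Pik3r1 encodes the p85-alpha regulatory subunit of phosphoinositide 3-kinase. It was at 9.47 and 9.03 in lean rats 1 and 2 and at 8.30 and 9.23 in obese rats 1 and 2. Obese rat 1 stood lowest and obese rat 2 lay between the lean rats, so the groups overlapped. The difference was -0.49 ± 0.39 (limma adjusted p = 0.597; 95% interval -1.39 to 0.42). It rested largely on obese rat 1, since without that rat it was -0.02, while without obese rat 2 it was -0.95.

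Akt2, the Akt isoform known for its role in glucose uptake by fat and muscle, was at 9.66 and 9.56 in the lean rats and 9.39 and 9.53 in the obese rats. Obese rat 2 and lean rat 2 were almost level. The difference was -0.15 ± 0.30 (limma adjusted p = 0.848), with a 95% interval from -0.84 to 0.54, and it lay between -0.23 and -0.08 with a rat left out.

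Slc2a4, the gene of the insulin-responsive transporter, was at 7.42 and 6.70 in lean rats 1 and 2 and at 7.27 and 7.73 in obese rats 1 and 2. Lean rat 1, the rat with the muscle signal, lay above obese rat 1, and lean rat 2 was the lowest of the 4. The difference was 0.44 ± 0.34 (limma adjusted p = 0.582), or 1.35-fold, and the 95% interval in linear terms ran from 0.783-fold to 2.35-fold. The value was 0.80 without lean rat 1 and 0.079 without lean rat 2, so the estimate depended on which lean rat was kept. Without lean rat 1 both obese rats exceeded the remaining lean rat, and the adjusted p was then 0.129.

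Pde3b, the phosphodiesterase through which insulin lowers cyclic AMP, followed Slc2a4 closely. It was at 8.90 and 8.41 in lean rats 1 and 2 and at 8.77 and 9.12 in obese rats 1 and 2, the same order of rats as for Slc2a4. The groups overlapped, and the difference was 0.29 ± 0.33 (limma adjusted p = 0.715; 95% interval -0.46 to 1.05). Without lean rat 1 the value was 0.54, and without lean rat 2 it was 0.048.

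Rapgef3 encodes EPAC1, an exchange factor that cyclic AMP switches on to activate Rap GTPases. It was at 6.54 and 6.61 in the lean rats and 6.05 and 5.88 in the obese rats. Both obese rats lay below both lean rats, and rats of the same group differed by 0.17 at most. The difference, -0.61 ± 0.25, was the lowest of the 8, or 1.53-fold lower in linear terms. Its unadjusted limma p was 0.039 and its adjusted p 0.301, with an unadjusted 95% interval from -1.18 to -0.04. With a rat left out it ran from -0.70 to -0.53. The near-background receptor genes shifted the same way, by a median of -0.39, though at most 0.65% of them reached the level of Rapgef3 on any array. Whether that shift enters the Rapgef3 value was not tested.

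Grb14, an adaptor that binds the activated receptor and inhibits its kinase, was at 7.47 and 7.74 in the lean rats and 7.91 and 7.52 in the obese rats. The groups overlapped, and the rats of each group differed by more than the group means did. The difference was 0.11 ± 0.30 (limma adjusted p = 0.897; 95% interval -0.59 to 0.80). It was below 0 when lean rat 1 (-0.028) or obese rat 1 (-0.089) was left out, and also when arrays were quantile normalized (-0.049).

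**Figure D2:**
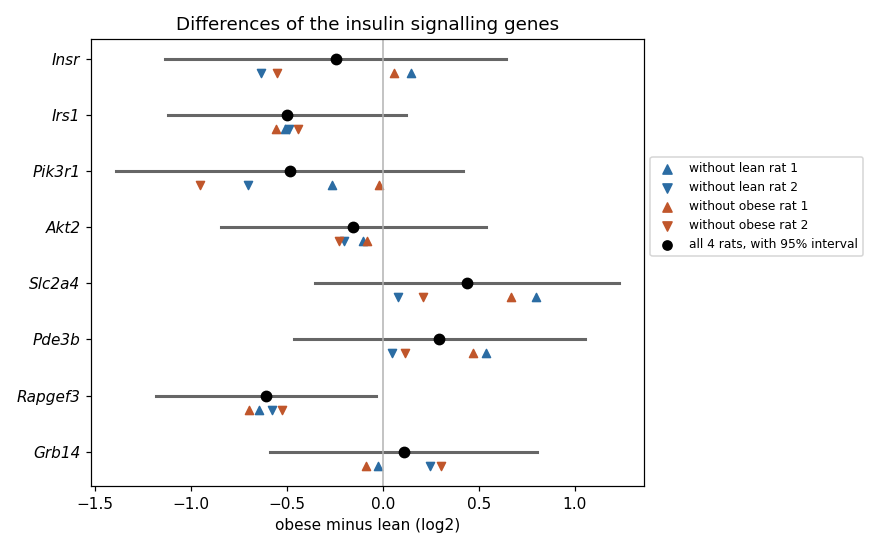
Obese minus lean difference (log2) of each gene with all 4 rats (black point) and its 95% limma interval (grey bar), and below it the values with 1 rat left out. The interval of Rapgef3 ends at -0.04 and all other intervals span 0; the left-out values of Insr and Grb14 fall on both sides of 0.

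Across the 4 rats the values of the 8 genes were compared after each gene was centred on its own mean, by the root mean square difference between 2 genes. Irs1 and Rapgef3 were the closest pair of the 8 (0.063), followed by Slc2a4 and Pde3b (0.11). Slc2a4 and Rapgef3 were the farthest apart (0.63). For 5 of the 8 genes, Insr, Pik3r1, Akt2, Slc2a4 and Pde3b, lean rat 1 exceeded lean rat 2 and obese rat 2 exceeded obese rat 1, which 23.3% of all genes also did. Among all genes, the 3 nearest to Slc2a4 over the 4 rats were Kansl2 (0.018), Ndufa4 (0.031) and Zfp18 (0.034), where the median gene was at 0.46. The nearest to Rapgef3 were Gar1 (0.020) and the odorant receptor genes Or8w1 (0.023) and Or8i2 (0.026), with the median gene at 0.38. In the lean rats Or8w1 was at 3.72 and 3.78 and in the obese rats at 3.20 and 3.10, a dim row with the same step. With 4 rats such likeness is a description and carries no test.

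**Figure D3:**
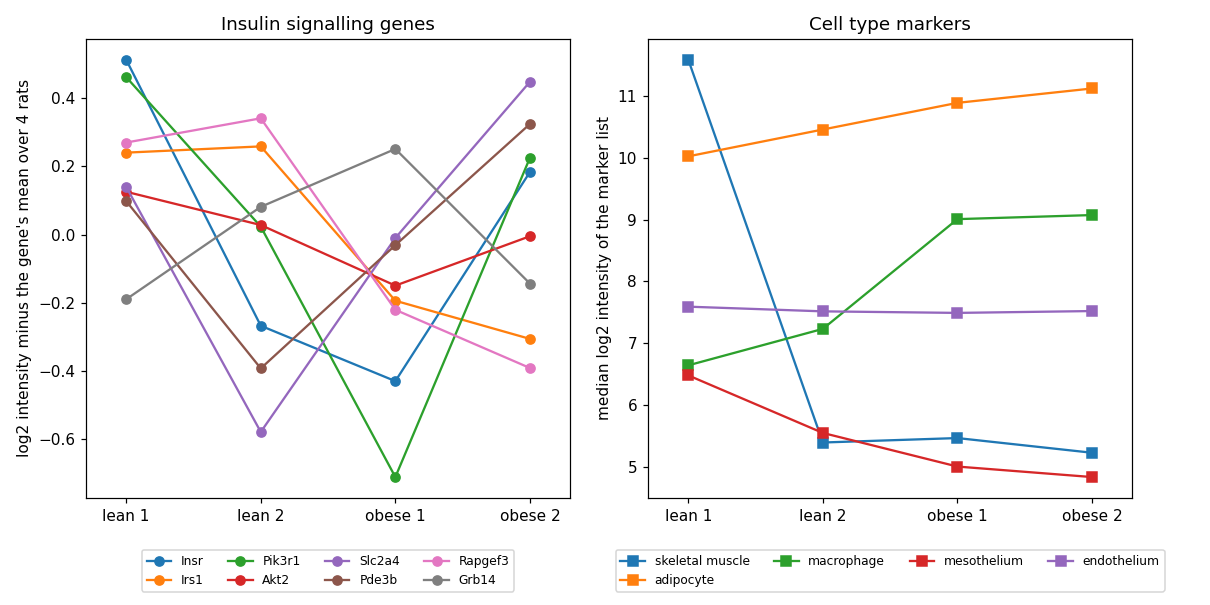
Left, log2 intensity of each of the 8 genes minus its mean over the 4 rats; right, the median log2 intensity of 5 cell type marker lists in the same rats. Lines only join the values of 1 gene or list: Slc2a4 and Pde3b keep the same order of rats, and the skeletal muscle list stands at 11.6 in lean rat 1 only.

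Other genes of the route were taken from 9 lists by role, with 97 of 108 genes measured. None of the 97 was called by limma in either direction, and 12 passed at an unadjusted p under 0.05, of which 9 were higher and 3 lower in the obese rats. That is 12.4% of the 97, where 15.3% of all genes passed. Their median difference was 0.076. The obese pair exceeded the lean pair in 31 of them (32%, against 26.4% of all genes) and lay below it in 14 (14.4%, against 21.3%). These 2 shares of all genes are the background for the counts of each list that follows, most of which rest on few genes.

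Among receptor relatives and adaptors, 5 of 10 measured genes were higher in both obese rats and 2 lower, where 26.4% and 21.3% of all genes were. The median was 0.23 (0.12 without obese rat 1), and none was at an unadjusted p under 0.05. Shc1, an adaptor that links the receptor to the Ras route, was at 8.16 and 7.73 in the lean and 8.86 and 8.43 in the obese rats, a difference of 0.70 ± 0.32. Its partner Grb2 was at 0.57 ± 0.30, but at 0.19 when its 2 rows were averaged. Irs3, a substrate found in rodent fat, was at 0.46 ± 0.28 while Irs1 was at -0.50 ± 0.27 (Irs3 was chosen after its values were seen). Whether the substrates differ from each other in their response was not tested.

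Of 6 phosphoinositide 3-kinase genes, 1 was at an unadjusted p under 0.05. This was Pik3cd, which encodes the catalytic subunit p110-delta known from leukocytes, at 5.57 and 5.65 in the lean rats and 7.27 and 6.55 in the obese rats. The difference was 1.30 ± 0.30 with an adjusted p of 0.113, and without obese rat 2 it was called (1.65, adjusted p = 0.028). The macrophage markers given above were also higher in both obese rats, and their part in this value was not tested. Pik3c2a was at 0.64 ± 0.41 with overlapping groups, and ran from 0.19 (without obese rat 2) to 1.09 (without obese rat 1). The list's median was 0.17, and 0.46 without lean rat 1.

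Among 8 genes of Akt and its activating kinases none was at an unadjusted p under 0.05. Their median was 0.086, and below 0 without lean rat 2 (-0.02) or obese rat 2 (-0.04). Akt1 was at 7.77 and 7.86 in the lean rats and 8.27 and 8.20 in the obese rats, a difference of 0.42 ± 0.28, whereas Akt2 was at -0.15 ± 0.30. The atypical kinase gene Prkcz was at -0.32 ± 0.22. Of 13 targets below Akt, 4 were higher in both obese rats (30.8%, against 26.4% of all genes) and 1 lower, and the median of 0.22 ran from 0.040 (obese rat 2 left out) to 0.37 (obese rat 1 left out) and was 0.10 with lean rat 2 removed. Rheb, the GTPase that switches on mTOR complex 1, was at 7.75 and 6.70 in the lean and 8.70 and 8.16 in the obese rats, a difference of 1.20 ± 0.41 (adjusted p = 0.241). It was called without lean rat 1 (1.73, adjusted p = 0.041) but was 0.68 without lean rat 2 (adjusted p = 0.381). Akt1s1, which encodes the mTOR complex 1 inhibitor PRAS40, was at 0.39 ± 0.29, with 0.15 without obese rat 1 and 0.63 without obese rat 2.

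Vesicle traffic genes that serve the Slc2a4 product had a median of 0.068 over 14 measured genes, with 6 higher and 1 lower in both obese rats (42.9% and 7.14%, against 26.4% and 21.3% of all genes) and none at an unadjusted p under 0.05. The median was 0.29 without lean rat 1 and 0.0009 without lean rat 2. Sort1, whose product sortilin helps form the storage vesicles, was at 8.24 and 7.94 in the lean rats and 8.66 and 8.93 in the obese rats (0.70 ± 0.30). The small GTPase gene Rab14 was at 0.69 ± 0.33 (0.43 without lean rat 2). Snap23, a membrane fusion gene outside the naming rule, was among the 7.45% of genes called when the lean group was lean rat 2 alone. Other hexose transporters had a median of 0.43 over 7 genes, which was 0.16 without obese rat 1, and 4 of them were higher in both obese rats, where 26.4% of all genes were. The fructose transporter gene Slc2a5 was at 5.12 and 5.20 in the lean and 5.64 and 6.23 in the obese rats (0.77 ± 0.27, adjusted p = 0.256, and 0.47 without obese rat 2). Slc2a1, the widely expressed GLUT1 gene, was at 0.61 ± 0.28 (0.34 without obese rat 1), beside 0.44 ± 0.34 for Slc2a4.

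Inhibitors of insulin signalling had a median of 0.055 over 17 genes (0.17 and 0.13 with lean rat 2 or lean rat 1 left out, 0.086 with obese rat 1 left out), with 4 higher and 0 lower in both obese rats (23.5% higher, against 26.4% of all genes). Dok1, a docking protein that dampens tyrosine kinase signals, was at 5.21 and 4.95 in the lean rats and 6.39 and 5.96 in the obese rats. Its difference of 1.10 ± 0.26 had an adjusted p of 0.118 and was called without lean rat 1 (1.23, adjusted p = 0.048). Ppp2ca, a catalytic subunit of phosphatase 2A, was at 0.55 ± 0.31.

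Genes of cyclic AMP breakdown and Rap exchange spread to both sides, with 3 of 12 higher and 5 lower in both obese rats (25% and 41.7%, against 26.4% and 21.3% of all genes). Of these 12, 5 were at an unadjusted p under 0.05, where 15.3% of all genes were. The median was 0.032, but -0.11 without lean rat 1 and -0.02 without lean rat 2. Abhd15, whose product is needed for normal PDE3B levels in fat cells, was at 6.08 and 6.36 in the lean and 7.02 and 7.004 in the obese rats (0.79 ± 0.26, adjusted p = 0.231). Pde4d, a cyclic AMP phosphodiesterase, was at 7.58 and 7.20 in the lean and 6.21 and 6.75 in the obese rats (-0.91 ± 0.31, adjusted p = 0.243). Pde3a, the relative of Pde3b known from heart and vessel muscle, was at -0.69 ± 0.30, and Rapgef4, the relative of Rapgef3 that encodes EPAC2, was at -0.05 ± 0.23 (both chosen after their values were seen). Rap1b, also outside the rule, was called with lean rat 2 as the whole lean group.

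FOXO targets, which are switched on where Akt signalling is low, had a median of -0.17 over 10 genes, which turned to 0.14 without lean rat 1 and was -0.099 without obese rat 1. Both obese rats were higher for 2 of them and lower for 4, where 26.4% and 21.3% of all genes were. Of the 10, 3 were at an unadjusted limma p under 0.05 (Sesn3 and Gadd45a higher, Fbxo32 lower), where 15.3% of all genes were. Sesn3, the gene of a stress-response sestrin, was at 6.96 and 6.62 in the lean rats and 8.27 and 8.23 in the obese rats. Its difference was 1.46 ± 0.29 (limma adjusted p = 0.072), with 1.63 without lean rat 1 and 1.29 without lean rat 2. Gadd45a, a growth arrest gene, was at 7.86 and 7.75 against 9.38 and 9.11 (1.44 ± 0.30, limma adjusted p = 0.084). The Gadd45a difference was 1.49 without lean rat 1 and 1.39 without lean rat 2. The ubiquitin ligase genes Fbxo32 (-1.17) and Trim63 (-1.29), known from muscle, lay lower in both obese rats, as 21.3% of all genes did. The part of the muscle signal of lean rat 1 in these differences was not tested. Trim63 was at 7.14 in lean rat 1 but 4.91, 4.602 and 4.88 in the other rats (both genes were chosen after their values were seen).

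**Figure D4:**
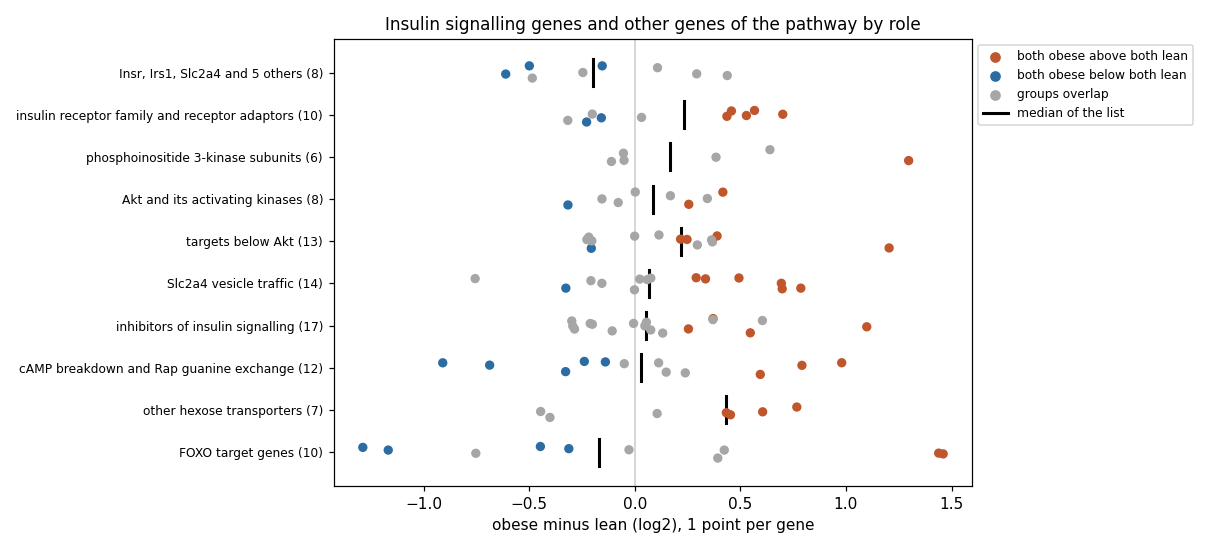
Obese minus lean difference (log2) of each measured gene, grouped by role, with a black line at each list's median; the number measured is in brackets. Orange and blue points are genes for which both obese rats lay above or below both lean rats, grey points genes whose groups overlap; Sesn3 (1.46) and Gadd45a (1.44) stand at the right of the FOXO list.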

How the data were processed

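Expression was read on Affymetrix Rat Gene ST arrays from amplified total RNA of the fat pad, per the labels' protocols. The authors deposited 1 linear intensity per row and array, made with RMA per the submitters' processing notes. The RMA version and the array's genome build were not given in the sources used here. Intensities were taken to log2 with no pseudocount. Of 29214 rows, 15310 carried exactly 1 symbol in the platform annotation, and for a gene with several rows the one with the highest mean over the 4 arrays was kept. limma 3.58.1, run in R 4.3.3, fitted obese against lean (lmFit, then eBayes with its trend option, no covariates) over all 14506 genes. Sample titles gave the groups, with 1 rat per sample, and the number of arrays limits the precision. For 1 gene on its own, the smallest two-sided p of an exact permutation test is 0.333 in this design.

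The members and gene lists were chosen with earlier results of these data known. The text names all measured members, of each of the 9 role lists the called genes or else the 2 with the smallest p, and the 3 genes nearest in profile to Slc2a4 and to Rapgef3, the member with the smallest p. Alternatives covered scaling, variance model, array weights, dim-gene filters, a pseudocount of 16, thresholds, the rat number as a block and each rat left out. The procedure was tested on 20 sets of simulated data with 200 changed genes, in which 2.17% of its calls were false. Noise there was independent between genes, so this share does not cover signals that many genes share in 1 rat. The fibroblast and progenitor (9 genes), endothelial (9), blood (8) and lymphocyte (7) marker lists had median differences of -0.015, -0.28, -0.23 and -0.018, with none called (unadjusted p under 0.05 for 1, 4, 1 and 1). Figures were drawn with matplotlib 3.10.9.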

Additional observations from a re-analysis of the deposited data

How the results depend on the processing

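Under every alternative except the scalings of the next paragraph, none of the 8 genes was called, and Irs1, Pik3r1, Akt2, Slc2a4, Pde3b and Rapgef3 kept their sign. With single rats left out Insr ran from -0.64 to 0.14, Irs1 from -0.55 to -0.44, Pik3r1 from -0.95 to -0.02, Akt2 from -0.23 to -0.08, Slc2a4 from 0.079 to 0.80, Pde3b from 0.048 to 0.54, Grb14 from -0.089 to 0.31 and Rapgef3 from -0.70 to -0.53. With quantile normalization all 8 differences were lower. Insr was then at -0.41, Irs1 at -0.64, Pik3r1 at -0.65, Akt2 at -0.31 and Rapgef3 at -0.66. Slc2a4 was at 0.32, Pde3b at 0.11 and Grb14 at -0.049. Before this step the interquartile range of the log2 values was 2.24 in lean rat 2, against 2.63 in lean rat 1 and 2.77 and 2.76 in the obese rats. The count of called genes, 122, was 75 with quantile normalization, 262 with a robust variance model, 66 without the lowest 50% of genes and 185 over all rows of the table, and 301 and 1 at thresholds of 0.1 and 0.01. With single rats removed it lay between 268 and 1081, where the spread rests on fewer rats. The sample titles number the rats within each group and state no pairing. Lean rat 1 minus lean rat 2 and obese rat 1 minus obese rat 2 had a Pearson correlation of 0.02 across 14506 genes. Genes are not independent replicates, so this value cannot settle whether same-numbered rats share a pairing. With the replicate block 327 genes were called, none of the 8 among them, and 1 FOXO target (Sesn3, 1.46, adjusted p = 0.0495). The FOXO list also had 1 call with the robust model and 2 at a threshold of 0.1. With a rat left out it had 0 to 2 calls, the kinase subunits, targets below Akt, vesicle traffic, inhibitors and cyclic AMP lists 0 to 1 each, and the remaining lists 0.

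Scalings to the 13 adipocyte markers were added after seeing the data. Subtracting each array's marker mean lowered every difference by 0.24, which put Grb14 at -0.13 and called none of the 8. Subtracting each array's marker median lowered the median of all genes to -0.77, because the median falls on different markers in different rats, and called 6272 genes. Relative to that shift the differences are those already given; as absolute values Irs1 (-1.27) and Rapgef3 (-1.38) were then called, 2 of the 8, and Slc2a4 (-0.33), Pde3b (-0.47) and Grb14 (-0.66) turned, as did Shc1 (-0.065), Grb2 (-0.20), Pik3c2a (-0.13), Akt1 (-0.35), Akt1s1 (-0.38), Sort1 (-0.068), Rab14 (-0.072), Ppp2ca (-0.22) and Slc2a1 (-0.16). Calls per list were then 5 of 12 cyclic AMP genes, 3 of 10 FOXO targets, 2 of 17 inhibitors and 2 of 7 hexose transporters. Adaptors (10 genes), Akt kinases (8) and vesicle traffic (14) had 1 each. Since 43.2% of all genes were called under this scaling, these counts and the 2 of the 8 are no result about the lists.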
